A study of Mus musculus with 16 samples.

Results

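The cytosolic ribosome is built from ribosomal RNA and a set of ribosomal proteins, each of which is encoded in the mouse by its own gene. The genes described here are those whose names follow the ribosomal protein pattern (Rpl or Rps with a number, and a final a, l or x, with or without a digit, where present) together with Rplp0, Rplp1, Rplp2 and Rpsa. The rule took 84 of the 24421 gene names in the deposited tables. Of these, 43 encode proteins of the large subunit, 31 proteins of the small subunit and 3 the P-stalk, and 7 are paralogues of a main gene (Rpl3l, Rpl10l, Rpl22l1, Rpl39l, Rpl7l1, Rps27l and Rps4l).

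RNA was sequenced from the dissected dentate gyrus of male C57BL/6 mice aged 1 year, in 16 libraries that each pooled 2 mice. Sedentary mice gave the groups p16 WT CTL (p16Ink4a +/+, libraries 1 to 4) and p16 KO CTL (p16Ink4a -/-, libraries 5 to 8), with 4 libraries in every group. Mice with a running wheel in the cage for 12 days gave p16 WT RUN (p16Ink4a +/+, libraries 9 to 12) and p16 KO RUN (p16Ink4a -/-, libraries 13 to 16). p16Ink4a is an inhibitor of the cyclin-dependent kinases that open the cell cycle, and the study's methods describe a knockout that spares p19Arf, made in FVB and crossed back to C57BL/6. Levels are in TPM, a share of transcripts corrected for gene length, so that levels of different genes can be compared.

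The targeted gene could not check the labels. Cdkn2a, whose single entry covers both p16Ink4a and p19Arf, was between 0 and 0.586 TPM in sedentary wild-type libraries and between 0 and 0.344 TPM in sedentary knockout libraries. Markers of dentate granule neurons summed to 521 to 1425 TPM in the libraries, beside 279 to 504 TPM for markers of CA pyramidal neurons. In 3 libraries, p16 WT CTL 2 and p16 KO CTL 6 and 7, the summed level of 8 long noncoding RNAs that stay in the nucleus was 977, 541 and 479 TPM, against 1828 to 2533 TPM in the other 13 libraries. These 3 libraries also had the lowest summed endothelial markers (86.7, 64.1 and 64.7 TPM, against 105 to 155 TPM), and the main counts and values of each comparison that uses them are given below with and without them. In such pooled tissue, fewer cells of a type and less RNA per cell cannot be told apart.

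Ribosomal protein mRNAs are among the most abundant of a cell, and their products are needed in near-equal numbers. Most of these mRNAs are known to begin with a run of pyrimidines at the cap, the terminal oligopyrimidine (TOP) tract, through which mTOR signalling sets their translation. In the nervous system, protein synthesis of this kind is needed for growth, for the renewal of progenitor cells and for lasting synaptic change.

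Whether such a run stands at the annotated start was read from the sequence. RefSeq start sites (GRCm38.p6) matched 63 of the 84 genes. Of these, 34.9% had an unbroken run of at least 6 C or T that held the start base or a base next to it, against 12.3% of 26962 other genes, so that most of the matched members lacked it. The run held the start base itself in 27.0% (17 genes), against 7.05% of the others. The median run at or next to the start was 4 bases in the family and 2 in the others. The sequences below run from 30 bases before the start to 14 bases after it on the strand of the gene, with that run in capitals, for 6 of the 22 genes with such a run and for 2 without it, Rps12 and Rps7.
Rps27, chr3:90213634-90213678, minus strand: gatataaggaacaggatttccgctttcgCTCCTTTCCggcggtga
Rpl38, chr11:114668550-114668594, plus strand: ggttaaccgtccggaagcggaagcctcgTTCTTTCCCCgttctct
Rpl14, chr9:120571487-120571531, plus strand: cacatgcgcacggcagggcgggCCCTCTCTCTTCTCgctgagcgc
Rplp2, chr7:141447621-141447665, plus strand: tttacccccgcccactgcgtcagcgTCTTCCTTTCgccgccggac
Rps18, chr17:33955651-33955695, minus strand: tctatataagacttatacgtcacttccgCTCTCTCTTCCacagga
Rps21, chr2:180257349-180257393, plus strand: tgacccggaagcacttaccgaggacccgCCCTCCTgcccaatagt
Rps12, chr10:23787195-23787239, minus strand: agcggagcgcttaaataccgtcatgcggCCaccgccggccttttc
Rps7, chr12:28635939-28635983, minus strand: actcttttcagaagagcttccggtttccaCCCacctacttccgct
The run is longest in Rpl14 among these, with 14 bases, and it was 7 bases in Rps21, 3 in Rps7 and 2 in Rps12, where it ends at the base before the start.

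Other short motifs were counted in windows from 250 bases before to 50 bases after the start. The letters CCGGAAG, the core bound by ETS factors such as GABPA, were found on either strand in 39.7% of the ribosomal protein genes and in 9.05% of the others. The letters AAGATGGC, the core bound by YY1, were found on either strand in 9.52% and 2.87%. GGGCGG, the GC box, stood on either strand in 60.3% against 35.9%. CCAAT on either strand was less frequent in this family (30.2% against 37.9%). TATAAA on the coding strand differed by less than 1 percentage point (9.52% against 8.88%). These are matches of letters in a window and carry no measure of binding.

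Ribosomal protein transcripts took between 4.87% and 6.78% of all TPM. The median gene had a mean of 610 TPM over the 16 libraries, 75 of the 84 genes had a mean of at least 100 TPM, and 81 were above 0 in every library. The highest was Rplp1, an acidic P-stalk protein that helps recruit elongation factors, with a mean of 3351 TPM and a range from 3014 to 4378 TPM. It was followed by Rps29 (1547 TPM), a zinc-binding small subunit protein, Rps15 (1365 TPM), a protein of the small subunit head, Rpl9 (1181 TPM), of the large subunit, and Rps21 (1127 TPM), of the small subunit. The other 2 P-stalk genes were lower than Rplp1, at 1056 TPM for Rplp2 and 436 TPM for Rplp0, the scaffold that anchors Rplp1 and Rplp2. Rpsa, a small subunit protein also known as a laminin receptor, was at 571 TPM.

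Paralogues were mostly far below their main gene. Rpl3l, known from heart and skeletal muscle, was at 0.282 TPM beside 914 TPM for Rpl3. Rpl10l, known from testis, was listed at 0 in all 16 libraries beside 623 TPM for Rpl10, and Rpl39l, also known from testis, was at 0.154 TPM beside 328 TPM for Rpl39. Rpl10l was thus the only member that was not tested.

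The other paralogues were at 28.1 TPM or more in every library. Rpl7l1 was at 46.2 TPM beside 589 TPM for Rpl7, and Rps4l at 58.5 TPM beside 536 TPM for the X-linked Rps4x. Rpl22l1 was at 153 TPM beside 136 TPM for Rpl22, so that the paralogue was the higher of this pair, but their ranges over the libraries (129 to 178 TPM and 124 to 159 TPM) overlapped. Rps27l, which is known as a p53 target, was at 34.97 TPM.

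Rps27, a zinc-binding protein of the small subunit, took 2 separate levels inside the groups. In p16 WT CTL its entry was at 755, 13.3, 16.1 and 809.6 TPM in libraries 1 to 4. In p16 KO CTL it was at 805, 1035, 989 and 764 TPM in libraries 5 to 8. In p16 WT RUN it was at 13.2, 18.6, 16.1 and 762 TPM, and in p16 KO RUN at 14.3, 671, 12.6 and 15.7 TPM. The libraries thus fell into 8 with 671 TPM or more and 8 with 18.6 TPM or less, with nothing between, and the p16 KO CTL libraries were all in the upper class.

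A second entry stood at the same place. The deposited tables give Rps27 at chr3:90212667-90213648 and a gene named Rps27rt at chr3:90212667-90213647, both on the minus strand of mm10. Rps27rt was high where Rps27 was low, at 102, 974, 916 and 116 TPM in p16 WT CTL, 104, 130.5, 114 and 102 TPM in p16 KO CTL, 818, 767, 869 and 82.4 TPM in p16 WT RUN and 813, 103, 786 and 918 TPM in p16 KO RUN. The sum of both entries kept within 774 to 1166 TPM, a span of 1.51-fold, where the entry of Rps27 alone spanned 82.4-fold. The separate levels of Rps27 were therefore a matter of which of the 2 entries carried the TPM of this locus in a library.

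**Figure D1:**
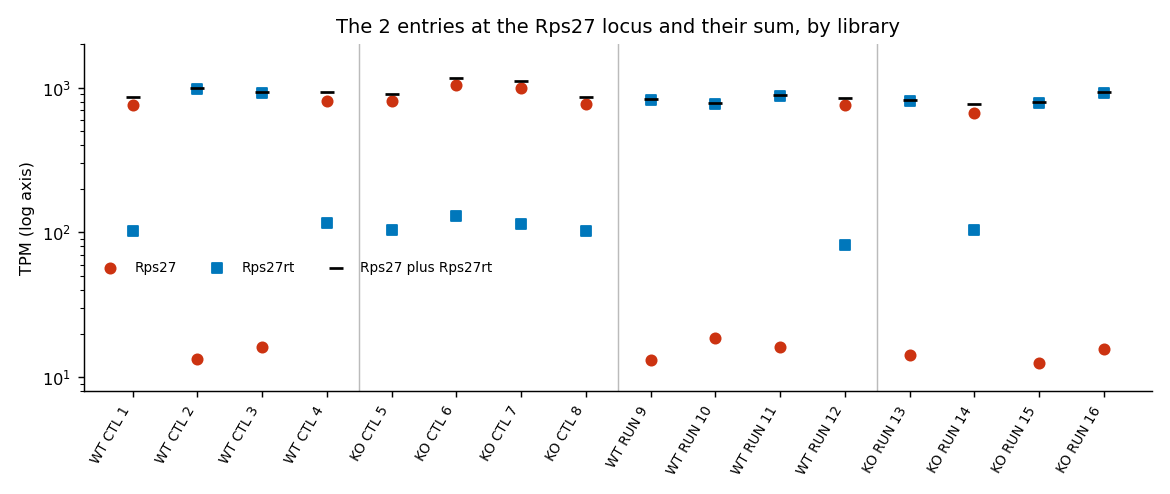
TPM (log axis) of the entries Rps27 and Rps27rt at the same position of chromosome 3, and of their sum, in each of the 16 libraries by group. Each entry is either high or low while the other is the reverse, and the sum stays between 774 and 1166 TPM.

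GENCODE vM21 places Rps27rt elsewhere, at chr9:114982366-114982739 on the minus strand, as a protein-coding gene with a single transcript. Its coding sequence of 255 bases has 0 differences from that of Rps27, and 92.2% of its transcript lies in words of 31 bases that Rps27 transcripts also hold. Reads from the 2 genes cannot be told apart over such words. The coding sequence of Rps27 is shown with that of the paralogue Rps27l (chr9:66946118-66949509, plus strand), with the 61 bases at which Rps27l differs in capitals.
Rps27: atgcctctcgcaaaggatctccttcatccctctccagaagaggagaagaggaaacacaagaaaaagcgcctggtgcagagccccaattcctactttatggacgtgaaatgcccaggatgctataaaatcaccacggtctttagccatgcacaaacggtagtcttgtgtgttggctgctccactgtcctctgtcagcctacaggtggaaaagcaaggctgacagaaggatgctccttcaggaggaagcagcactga
Rps27l: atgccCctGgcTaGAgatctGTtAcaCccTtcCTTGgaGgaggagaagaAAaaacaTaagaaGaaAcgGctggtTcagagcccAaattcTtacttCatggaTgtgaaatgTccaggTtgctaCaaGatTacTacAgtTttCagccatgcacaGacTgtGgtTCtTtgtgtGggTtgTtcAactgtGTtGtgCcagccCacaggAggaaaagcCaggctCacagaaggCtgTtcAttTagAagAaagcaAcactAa
The identity of Rps27l with Rps27 is 76.1%, with the differences spread over the whole reading frame, and the level of Rps27l (28.1 to 41.6 TPM) did not split into 2 classes.

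At 3 more loci a second entry named for a processed pseudogene on another chromosome shared the position and strand of a ribosomal protein gene. Rpl26, a large subunit protein known to bind p53 mRNA, was listed at only 1.09 to 2.22 TPM, while the entry Gm15772 at the same locus of chromosome 11 had 725 to 1072 TPM. Rpl34, of the large subunit, was at 37.5 to 48.5 TPM beside 269 to 438 TPM for Rpl34-ps1 on chromosome 3. Rpl30, also of the large subunit, kept most of its locus, with 453 to 757 TPM beside 13.5 to 55.9 TPM for Gm12191 on chromosome 15.

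GENCODE vM21 has Gm15772 at chr5:3236431-3236868, Rpl34-ps1 at chr6:71124610-71124963 and Gm12191 at chr11:49678710-49679057. The share of each copy in words of 31 bases shared with its parent was 99.5%, 99.4% and 99.7%. The low levels of Rpl26 and Rpl34 are thus levels of an entry and not of a locus, and their locus sums were 726 to 1074 TPM and 316 to 477 TPM.

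Apart from Rps27 and the genes near 0 TPM, Rpl35a and Rpl30 varied most inside the groups among the main genes at over 100 TPM. Rpl35a, a large subunit protein affected in Diamond-Blackfan anaemia, was at 632, 703, 565 and 621 TPM in p16 WT CTL, 405, 684, 569 and 575 TPM in p16 KO CTL, 643, 451, 677 and 575 TPM in p16 WT RUN and 504, 498, 491 and 628 TPM in p16 KO RUN. Rpl30 was at 686, 757, 570.2 and 680.2 TPM in p16 WT CTL, 513, 627, 685 and 579.8 TPM in p16 KO CTL, 705, 535, 729 and 453 TPM in p16 WT RUN and 507, 515, 527 and 519.5 TPM in p16 KO RUN. Rps7, a small subunit protein, was at 575, 646, 549 and 561 TPM in p16 WT CTL, 465, 675, 629.7 and 523 TPM in p16 KO CTL, 554, 471, 594 and 466 TPM in p16 WT RUN and 505, 483, 492 and 478 TPM in p16 KO RUN. All 3 were low in p16 KO CTL 5 and p16 WT RUN 10, whereas p16 WT RUN 12 was low in Rpl30 and Rps7 only. They were also below their own mean over the 16 libraries in p16 KO RUN 13, 14 and 15.

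**Figure D2:**
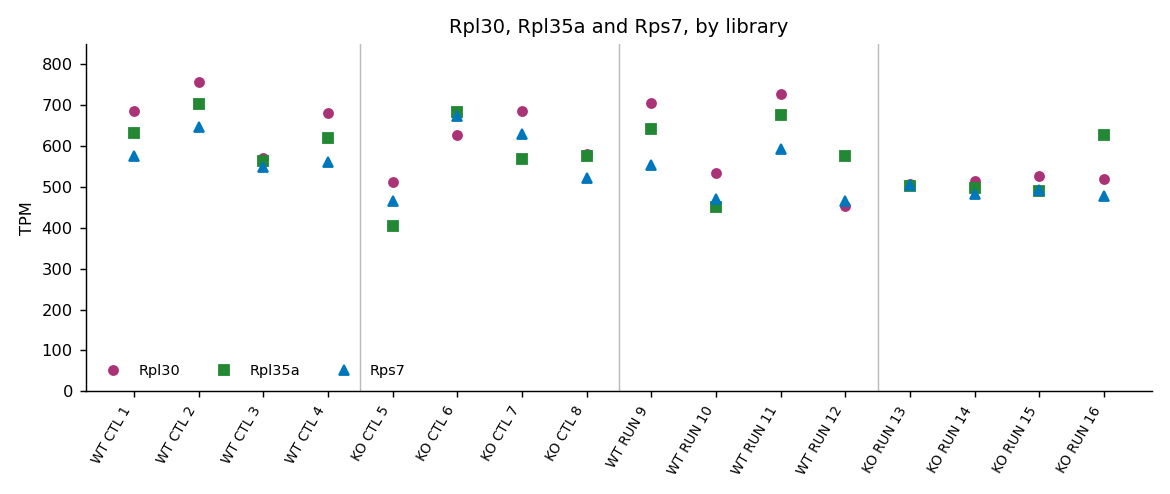
TPM of Rpl30, Rpl35a and Rps7 in each of the 16 libraries by group. All 3 genes dip in p16 KO CTL 5 (513, 405 and 465 TPM) and p16 WT RUN 10 (535, 451 and 471 TPM), and are also below their own mean over the libraries in p16 KO RUN 13, 14 and 15.

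The summed level of the family was 51469, 56718, 53094 and 54072 TPM in p16 WT CTL (53838 ± 2199.7, SD, n = 4). It was 53487, 67795, 63641 and 51412 TPM in p16 KO CTL (59084 ± 7892, SD, n = 4). It was 50335, 48675, 54412 and 52756 TPM in p16 WT RUN (51544.5 ± 2542, SD, n = 4) and 48939, 49603, 48801 and 52699 TPM in p16 KO RUN (50010.5 ± 1826, SD, n = 4). The 3 highest sums were those of p16 KO CTL 6 and 7 and p16 WT CTL 2, which are the 3 libraries with the lowest nuclear noncoding RNAs, while p16 KO CTL 5 lay within the range of p16 WT CTL and p16 KO CTL 8 just below its lowest library.

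**Figure D3:**
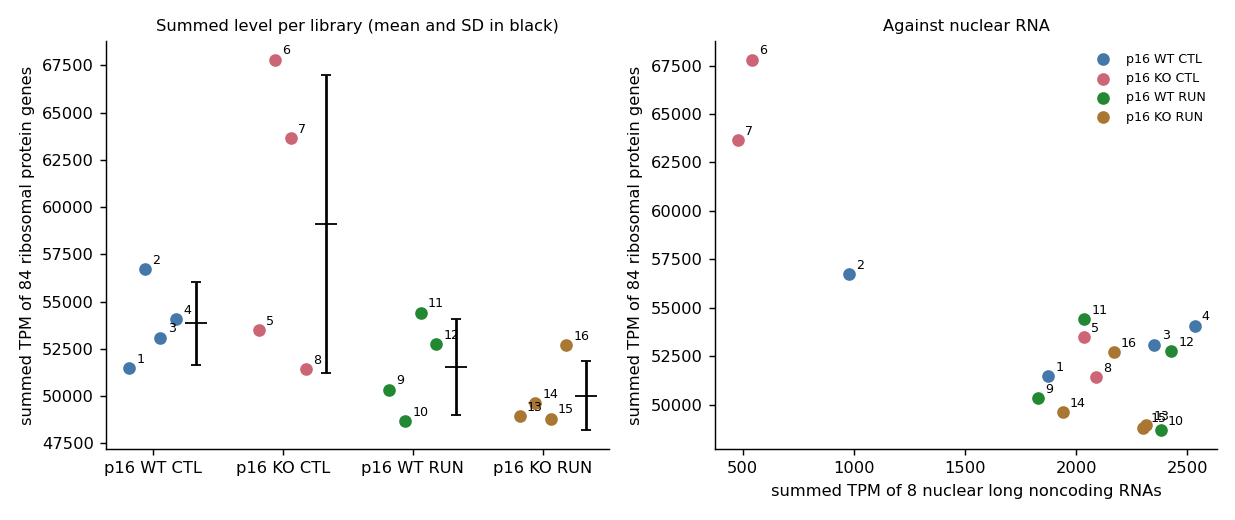
Left, summed TPM of the 84 ribosomal protein genes in each library by group, with the mean and SD of 4 libraries. Right, the same sums against the summed TPM of 8 nuclear long noncoding RNAs, where the 3 libraries with 977 TPM or less on the horizontal axis have the 3 highest sums.

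The genes moved together from library to library. On the scaled log2 level, the median gene lay above its mean over the libraries by 0.39 and 0.34 in p16 KO CTL 6 and 7 and by 0.17 in p16 WT CTL 2, with 81, 81 and 78 of the 83 tested genes above their mean. In the other 13 libraries the median deviation was between −0.15 and −0.01. The SD over libraries of the median gene was 0.172, compared with 0.122 for 2101 other genes of at least 100 TPM. Once the median deviation of the family was subtracted from each library, the SD of the median gene was 0.0544. That deviation was taken from the same 83 genes, and the other genes got no such step, so that 0.0544 has no like reference. With this subtraction 69 of the 83 genes had an SD under 0.1, and the 14 others included Rps27, Rpl3l, Rpl39l, Rpl26, Rps4l, Rpl30, Rpl35a, Rpl3 and Rps7.

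Some other values also stood apart in these libraries. Microglia markers summed to 326, 403 and 372 TPM in p16 WT CTL 2 and p16 KO CTL 6 and 7, against 258 to 317 TPM in the other 13 libraries, without overlap. Astrocyte markers were above the range of the others (1987 to 2612 TPM) in p16 KO CTL 6 and 7, at 3024 and 2954 TPM, but not in p16 WT CTL 2 (2567 TPM). The mean coverage of genes relative to the average library was above the range of the others (0.621 to 1.07) in p16 WT CTL 2 (1.95) and p16 KO CTL 7 (1.68), but not in p16 KO CTL 6 (1.02). Choroid plexus markers stood apart in p16 KO CTL 7 alone, at 212 TPM, where the other libraries had 16.9 to 62.0 TPM. The part of these differences in the levels of ribosomal protein genes was not tested.

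**Figure D4:**
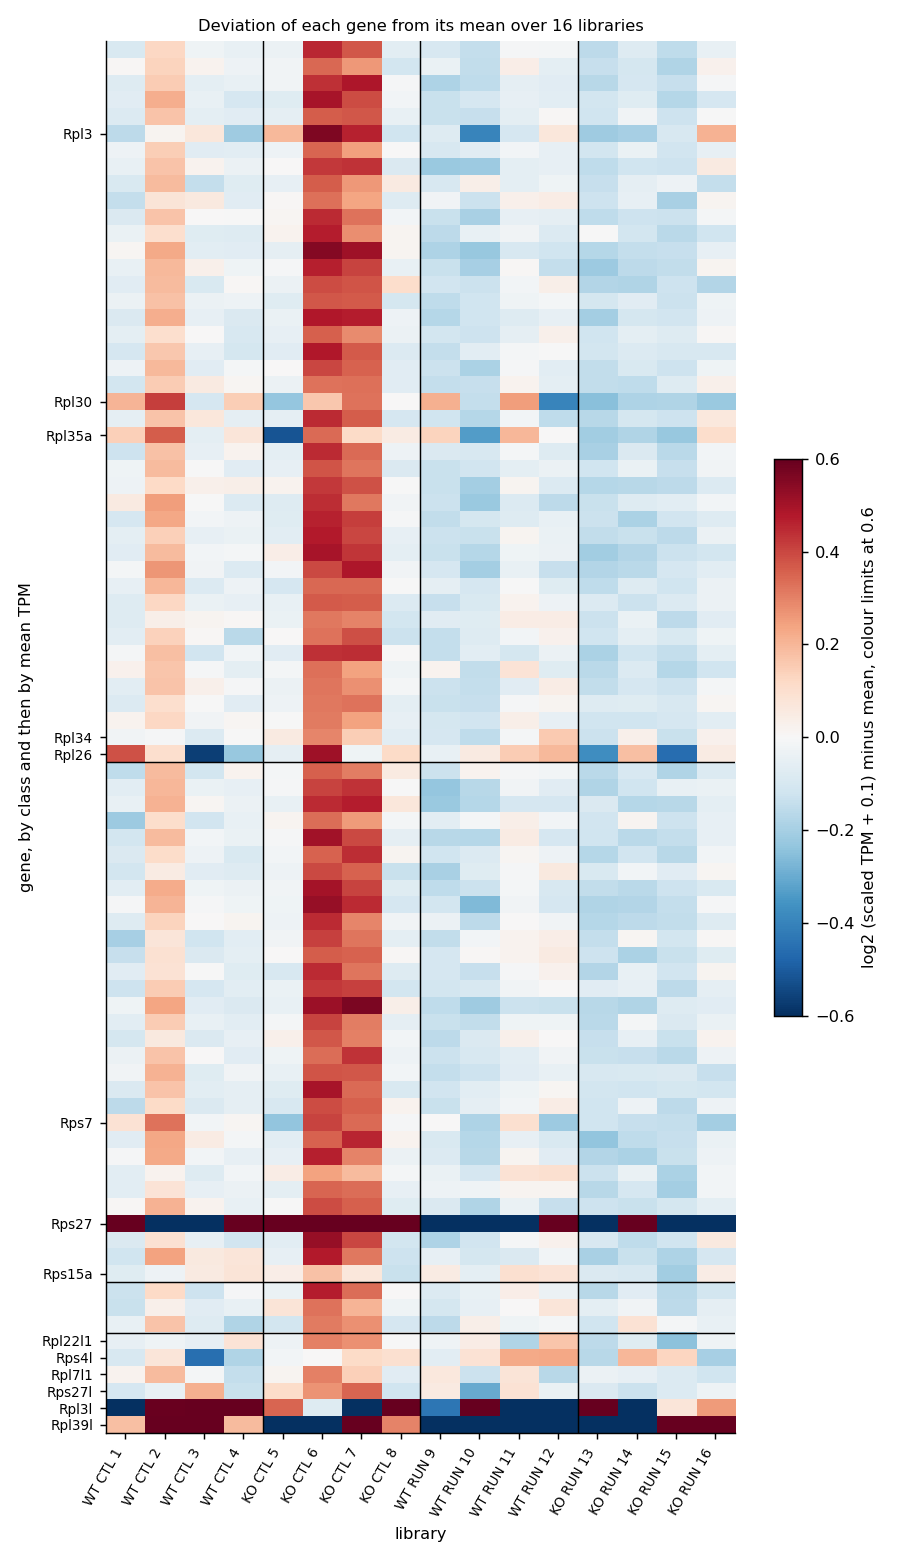
Log2 deviation of each of the 83 tested ribosomal protein genes (rows) from its own mean over the 16 libraries (columns, by group), from −0.6 to 0.6; rows are labelled for the genes whose SD around the family median is 0.1 or more. The columns of p16 WT CTL 2 and p16 KO CTL 6 and 7 are high over nearly all rows, with median deviations of 0.17, 0.39 and 0.34.

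Groups were compared pairwise with limma on log2(scaled TPM + 0.1), at an unadjusted p under 0.05 and with p-values adjusted by Benjamini and Hochberg over the 17317 genes tested. With all libraries of a comparison, no ribosomal protein gene had an adjusted p under 0.05, while at an unadjusted p under 0.05 there were between 2 and 49 of them. When single libraries were left out, 2 reached it in Set A, namely Rpl38 without p16 KO CTL 5 (log2 difference −0.45, limma, adjusted p = 0.0494) and the Rps27 entry without p16 KO RUN 14 (−6.05, limma, adjusted p = 2.23e-06), an entry described above. In those 2 fits 1.03% and 0.0346% of all genes reached it, so that the call of Rpl38 (1 of 83 members) stood near its background. Over all genes and with all libraries, an adjusted p under 0.05 was reached by 0.0173% in Set A, 0.00577% in Set E and 0.0% elsewhere. The exact permutation test of single genes, over 35 splits of 8 libraries, cannot go below p = 0.0286.

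Set A asked what running did in the knockout (p16 KO RUN against p16 KO CTL). The mean levels of ribosomal protein genes were lower in the runners almost throughout, but none had an adjusted p under 0.05 (limma, all libraries). How far this rested on single sedentary libraries is given below. Of the 83 genes, 82 had a lower mean and 49 were lower at an unadjusted p under 0.05, none higher, while the background of genes lower at this threshold was 7.74% and that of genes higher 10.7% (18.5% in either direction). The median log2 difference was −0.27 (a ratio of 0.830), compared with 0.02 over all genes tested. The exception, with a higher mean, was Rpl39l, which is near 0 TPM. The 49 were 24 of 43 large subunit genes, 21 of 31 small subunit genes, 2 of 3 P-stalk genes and 2 of 6 paralogues.

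Rpl38, a large subunit protein known for its part in the translation of Hox mRNAs, was at 722, 901, 872 and 764 TPM in p16 KO CTL and at 656, 635, 673 and 659 TPM in p16 KO RUN. The groups did not overlap, and the log2 difference was −0.37 (SE 0.0981, limma, unadjusted p = 0.00411, adjusted p = 0.165, exact permutation p = 0.0286). Rpl14, of the large subunit, was at 544, 669.7, 635 and 514 TPM against 478, 464, 476 and 509 TPM, again without overlap, with a log2 difference of −0.35 (SE 0.105, limma, adjusted p = 0.191). In all, 23 genes were lower with no overlap of the scaled levels of the groups, against a background of 4.55%.

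Rps12, a small subunit protein known from cell competition in flies, was at 817, 974, 946 and 784 TPM against 749, 695, 737 and 779.9 TPM, with a log2 difference of −0.31 (SE 0.0988, limma, adjusted p = 0.203). Of the P-stalk, Rplp1 was at 3302, 4378, 3888 and 3267 TPM against 3036, 3148, 3014 and 3162 TPM (log2 difference −0.32, SE 0.13, limma, adjusted p = 0.245). Rplp2 had a log2 difference of −0.22 (SE 0.085, limma, adjusted p = 0.241) and Rplp0 one of −0.12 (SE 0.11, limma, adjusted p = 0.570), and the groups overlapped for both. Rpsa was at 550.1, 757, 665 and 522 TPM against 537, 518, 532 and 538 TPM (log2 difference −0.28, limma, adjusted p = 0.281), and p16 KO CTL 8 lay inside the range of the runners in TPM but not once scaled.

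The difference in Set A rested largely on p16 KO CTL 6 and 7. Without these 2 libraries the median log2 difference was −0.0698 and 6 genes were lower at an unadjusted p under 0.05 (Rpl14, Rpl36a, Rpl38, Rps12, Rps27 and Rps29), with 76 of 83 genes still lower. These are 7.23% of the members, where 8.49% of all genes were past the threshold in either direction in that fit. The share of genes lower alone was not counted there, so that it gives no like background. Rpl38 then had a log2 difference of −0.20 (SE 0.0591, limma, adjusted p = 0.494) and Rps12 one of −0.13 (SE 0.055, limma, adjusted p = 0.579). Rpl14 was then at −0.15 (limma, adjusted p = 0.523), Rplp1 at −0.11 (limma, adjusted p = 0.686), Rplp2 at −0.0984 (limma, adjusted p = 0.705) and Rpsa at −0.0314 (limma, adjusted p = 0.862), of which Rpl14 was past the unadjusted threshold. Rplp0 was at 0.0836 (limma, adjusted p = 0.748), the opposite direction. Without p16 KO CTL 6 alone 10 genes were past the threshold (12% of the members, where 11.9% of all genes were past it). Without p16 KO CTL 7 there were 12 (14.5%, all genes 11.7%). All of these members were lower, while the shares of all genes count both directions, so that they are no like background. The count was 70 and 76 without p16 KO CTL 5 and 8 (84.3% and 91.6%, all genes 27.4% and 21%). Without p16 KO RUN 13, 14, 15 and 16 there were 14, 22, 17 and 38 (16.9%, 26.5%, 20.5% and 45.8%, all genes 13.2%, 14.4%, 14.1% and 13.2%). With quantile normalization there were 24 (28.9%, all genes 17.8%, with a median of −0.15). Without the variance trend there were 33 (39.8%, all genes 16%), and with all 16 libraries in one fit 72 (86.7%, all genes 20.4%). The sign of the median did not change in any of these fits.

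Markers of cell types also differed in Set A. Of all genes, 18.5% were past the unadjusted threshold there in either direction, and 8.49% without p16 KO CTL 6 and 7. The 6 markers of oligodendrocytes had a lower mean in the runners (median log2 difference −0.40, 4 past the unadjusted threshold), as did the 6 of astrocytes (−0.31, 2 past it) and the 6 of microglia (−0.28, 2 past it). Of 7 markers of CA pyramidal neurons 5 had a lower mean (median −0.33, 2 past it), and all 6 of choroid plexus did (−0.46, none past it). The means of 6 of 7 markers of granule neurons, the main cell type of the tissue, were higher in the runners (median 0.29, 1 past it), as were those of the 6 of endothelium (0.45, 1 past it). GABAergic interneuron markers had a median of −0.01, with 1 past it in each direction. Without p16 KO CTL 6 and 7 the medians were 0.52 for granule neurons, with all 7 higher, −0.49 for oligodendrocytes, −0.41 for CA pyramidal neurons, 0.02 for choroid plexus, −0.01 for astrocytes, −0.06 for microglia and 0.08 for endothelium. No microglia, endothelium or choroid plexus marker was then past the threshold, while 3 oligodendrocyte, 3 CA pyramidal, 1 astrocyte, 1 granule neuron and 1 GABAergic interneuron marker were. p16 KO CTL 8 stood apart in composition, with the lowest granule neuron sum (521 TPM) and the highest sums of CA pyramidal neuron (504 TPM) and oligodendrocyte markers (2426 TPM). The part of these cell types in the levels of the ribosomal protein genes was not tested.

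Rps27 needs its locus for a comparison. Its entry alone had a log2 difference of −4.65 in Set A (SE 1.14, limma, unadjusted p = 0.00278, adjusted p = 0.158), the smallest p of the family. For the sum of Rps27 and Rps27rt the log2 difference was −0.34 (SE 0.124, limma, unadjusted p = 0.0231, adjusted p = 0.231, exact permutation p = 0.0857), within the range of the other genes. The Rpl26 locus, at −0.37 (SE 0.13, limma, adjusted p = 0.225), and the Rpl30 locus, at −0.31 (SE 0.0964, limma, adjusted p = 0.199), were also lower at an unadjusted p under 0.05, and the Rpl34 locus was at −0.25 (SE 0.121, limma, adjusted p = 0.296). Without p16 KO CTL 6 and 7 the sums differed by −0.11 (Rps27), −0.11 (Rpl26), −0.15 (Rpl30) and −0.05 (Rpl34), and of these the Rpl30 locus was past the unadjusted threshold (limma, adjusted p = 0.583).

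**Figure D5:**
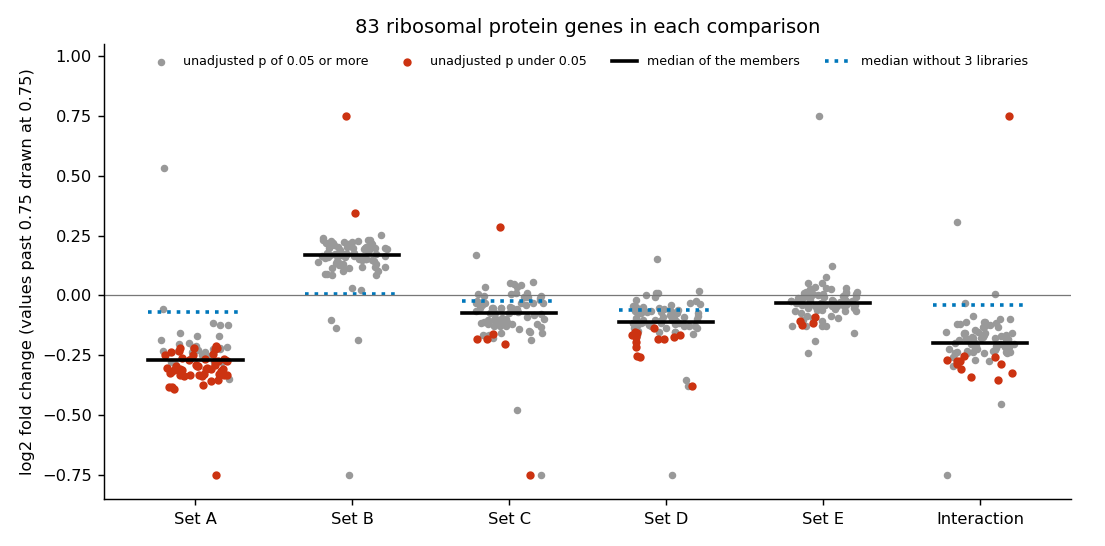
Log2 difference of each of the 83 tested ribosomal protein genes in Sets A to E and in the interaction, with the median as a line and, dotted, the median without p16 WT CTL 2 and p16 KO CTL 6 and 7; values beyond 0.75 are drawn at 0.75. The median is −0.27 in Set A and 0.17 in Set B, and −0.0698 and 0.00777 without those libraries.

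Set B asked what the knockout did in sedentary mice (p16 KO CTL against p16 WT CTL), and it shares the p16 KO CTL libraries with Set A. The mean was higher in the knockout for 79 of 83 genes, with a median log2 difference of 0.17 against −0.01 over all genes. Only Rpl3 and Rps27 were higher at an unadjusted p under 0.05, where the background of genes higher is 3.15% and that in either direction 6.69%. Rpl3, a large subunit protein at the peptidyl transferase centre, was at 1052, 1262, 1148 and 811 TPM in p16 KO CTL and at 814, 876, 975 and 807 TPM in p16 WT CTL. The log2 difference was 0.35 (SE 0.149, limma, unadjusted p = 0.0455, adjusted p = 0.625, exact permutation p = 0.114), and p16 KO CTL 8 lay within the control range.

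Rps18, of the small subunit, was the next gene by p, with 666, 786, 728 and 618 TPM in p16 KO CTL and 599, 638, 622 and 640.6 TPM in p16 WT CTL (log2 difference 0.22, SE 0.101, limma, adjusted p = 0.625). On scaled levels Rps27 was the only gene without overlap of the groups in Set B, but p16 KO CTL 8 and p16 WT CTL 4 both lay 2.82 above its mean on the log2 scale and the groups overlapped in TPM. This stands against a background of 1.46% of genes higher without overlap. The Rps27 entry differed by 3.11 (SE 1.35, limma, adjusted p = 0.625), but its locus sum by only 0.18 (SE 0.13, limma, adjusted p = 0.634). Without p16 WT CTL 2 and p16 KO CTL 6 and 7 the median was 0.00777, 50 genes were higher and 33 lower, and the number of genes past the threshold was 0, with a smallest unadjusted p of 0.0599 and, for Rpl3, a log2 difference of 0.14 (limma, adjusted p = 0.742). In that fit the background was 6.68% in either direction, the Rps27 locus sum differed by 0.01, and Rps18 by 0.0871 (limma, adjusted p = 0.673).

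The count in Set B moved with single libraries and settings. Without p16 KO CTL 5 it was 10 (12% of the members, where 13.5% of all genes were past the threshold in either direction). Without p16 KO CTL 8 it was 13 (15.7%, all genes 9.6%), and without p16 WT CTL 2 it was 5 (6.02%, all genes 17.5%). All of these were higher in the knockout. The count was 1, higher, without each of p16 WT CTL 1, 3 and 4, and 0 without p16 KO CTL 6. Without p16 KO CTL 7 it was 1, Rpl39l, which was lower. In these last 5 fits 3.22% to 4.22% of all genes were past the threshold.

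Markers of cell types also differed between the genotypes of sedentary mice. Of all genes, 6.69% were past the unadjusted threshold there in either direction, and 6.68% without the 3 libraries low in nuclear RNA. The 6 oligodendrocyte markers had a higher mean in the knockout (median log2 difference 0.41, 1 past the unadjusted threshold), as did the 6 of microglia (0.26, 2 past it) and 5 of 6 of astrocytes (0.26, 1 past it), while all 6 of endothelium had a lower one (−0.20). Of the neurons, 6 of 7 CA pyramidal markers had a higher mean (0.18, 2 past it), as did 6 of 7 of GABAergic interneurons (0.14, 2 past it), and all 7 granule neuron markers a lower one (−0.16). Without the 3 libraries low in nuclear RNA the medians were 0.61 for oligodendrocytes, 0.05 for microglia, 0.12 for astrocytes, 0.11 for endothelium, 0.37 for CA pyramidal neurons, 0.28 for GABAergic interneurons and −0.60 for granule neurons. No oligodendrocyte, microglia, endothelium or GABAergic interneuron marker was then past the threshold, while 3 CA pyramidal, 1 astrocyte and 1 granule neuron marker were. The part of these cell types in the levels of the family was not tested.

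Set C asked what running did in the wild type (p16 WT RUN against p16 WT CTL). The mean was lower in the runners for 70 of 83 genes, with a median log2 difference of −0.07 against 0.00 over all genes. At an unadjusted p under 0.05, 5 genes were lower and 1 higher, where the background was 2.13% lower and 2.69% higher (4.81% in either direction). Rpl23, of the large subunit and an inhibitor of Mdm2 when free, was at 486, 443, 505 and 467 TPM in p16 WT RUN and 540.05, 591, 532 and 507 TPM in p16 WT CTL, without overlap. The log2 difference was −0.20 (SE 0.0756, limma, unadjusted p = 0.0239, adjusted p = 0.985, exact permutation p = 0.0286).

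Rps21 was at 988, 991, 1080.2 and 1052 TPM in p16 WT RUN and 1090.5, 1241, 1165 and 1130.2 TPM in p16 WT CTL, with a log2 difference of −0.18 (SE 0.0726, limma, adjusted p = 0.985) and no overlap. The other 3 lower genes were Rpl35, Rps6 (the classic substrate of S6 kinase) and Rpl39l. The last was listed at 0 in all 4 p16 WT RUN libraries and at 0.119, 0.476, 0.289 and 0.124 TPM in p16 WT CTL, a level at which single reads decide. The higher gene was the paralogue Rps4l, at 57.2, 61.5, 70.4 and 68.8 TPM in p16 WT RUN and 54.7, 58.7, 43.8 and 53.1 TPM in p16 WT CTL (log2 difference 0.28, SE 0.114, limma, adjusted p = 0.985). The groups did not overlap for 6 genes, all lower, against a background of 1.32%. Without p16 WT CTL 2 the mean was lower for 56 of 83 genes, the number past the threshold was 4 (4.82%, background 5.88%), the median −0.03 and the log2 difference −0.14 for Rpl23, −0.12 for Rps21 and 0.36 for Rps4l. The number was 1 without p16 WT RUN 10, 4 without p16 WT CTL 3 and 3 without each of p16 WT RUN 9 and 12 (1.2%, 4.82% and 3.61% of the members). In those fits 3.07%, 4.87%, and 5% and 4.17% of all genes were past the threshold in either direction. It was 11 without p16 WT RUN 11 (13.3%, all genes 5.67%) and 8 without each of p16 WT CTL 1 and 4 (9.64%, all genes 3.42% and 5.31%). All 8 nuclear long noncoding RNAs (median 0.20) and all 6 endothelial markers (0.12) had a higher mean in Set C. So did 6 of 7 CA pyramidal (0.19) and 6 of 7 GABAergic interneuron markers (0.17), while 5 of 6 microglia (−0.08) and 4 of 6 astrocyte markers (−0.02) were lower. Without p16 WT CTL 2 the medians were −0.07, 0.04, 0.39, 0.24, −0.03 and 0.10 in this order. The part of these lists in the levels of the family was not tested.

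Sets A and C share no library and both compare runners with sedentary mice. The mean was lower in both for 69 of the 83 genes, of opposite direction for 14 and higher in both for 0. Without p16 WT CTL 2 and p16 KO CTL 6 and 7 these counts were 52, 28 and 3.

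Set D compared p16 KO RUN with p16 WT CTL, so that both genotype and running differ. Of 83 genes 78 had a lower mean in p16 KO RUN, with a median log2 difference of −0.11 against 0.00 over all genes. At an unadjusted p under 0.05, 14 genes were lower and none higher, where the background was 3.66% lower and 8.63% in either direction. They were 7 large subunit genes (Rpl5, Rpl14, Rpl22, Rpl30, Rpl35a, Rpl36a and Rpl38) and 7 small subunit genes, among them Rps3a1, Rps4x, Rps6, Rps7, Rps19 and Rps27a. The largest difference among those named was that of Rpl30, whose mean was 517 ± 8.17 TPM in p16 KO RUN and 673 ± 77.1 TPM in p16 WT CTL (SD, n = 4 each) and whose groups did not overlap. Its log2 difference was −0.38 (SE 0.0969, limma, unadjusted p = 0.00361, adjusted p = 0.299, exact permutation p = 0.0286), and that of its locus sum −0.37 (limma, adjusted p = 0.269).

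The 4 p16 KO RUN libraries were the most even of the 4 groups in Rpl30, and the p16 WT RUN libraries the least, with 605 ± 133 TPM (SD, n = 4). Rpl14 differed by −0.18 in Set D (SE 0.051, limma, unadjusted p = 0.00572, adjusted p = 0.333), and Rps7 by −0.25 (SE 0.0767, limma, unadjusted p = 0.00922, adjusted p = 0.385), both without overlap. The groups did not overlap for 12 genes, all lower, against a background of 2.41%. Without p16 WT CTL 2 the mean was lower for 69 of 83 genes, 11 were past the threshold (13.3%, background 11.2%), the median was −0.06 and the log2 difference −0.30 for Rpl30, −0.16 for Rpl14 and −0.18 for Rps7. Without p16 KO RUN 13, 14 and 15 there were 6, 7 and 7 (7.23%, 8.43% and 8.43% of the members), all lower. In those fits 7.91%, 6.68% and 7.11% of all genes were past the threshold in either direction. Without p16 KO RUN 16 there were 20 (24.1%, all genes 7.68%). Leaving out p16 WT CTL 1, 3 and 4 gave 15, 13 and 15 (18.1%, 15.7% and 18.1%, all genes 6.53%, 9.1% and 8.7%). All 8 nuclear long noncoding RNAs (median 0.20) and all 6 endothelial markers (0.27) had a higher mean in Set D. Medians were 0.25 for granule neurons, 0.21 for CA pyramidal neurons, −0.07 for astrocytes, −0.06 for oligodendrocytes and −0.09 for microglia. Without p16 WT CTL 2 they were −0.09 (noncoding RNAs), 0.19 (endothelium), 0.01 (granule neurons) and 0.34 (CA pyramidal neurons). The part of these lists in the levels of the family was not tested.

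Set E compared the runners of both genotypes (p16 KO RUN against p16 WT RUN). The difference was small, with a median log2 of −0.03 against 0.00 over all genes and a lower mean in p16 KO RUN for 63 of 83 genes. The 4 genes below the threshold, all lower, included Rpl38, Rps12 and Rps19, where the background was 1.76% lower and 3.87% in either direction. Rps12 was at 749, 695, 737 and 779.9 TPM in p16 KO RUN and 766, 801, 839 and 837 TPM in p16 WT RUN (log2 difference −0.12, SE 0.0473, limma, unadjusted p = 0.027, adjusted p = 1, exact permutation p = 0.0571). Rpl38 was at 656, 635, 673 and 659 TPM against 688, 663, 743 and 749 TPM (log2 difference −0.11, SE 0.047, limma, adjusted p = 1), and in both genes 1 knockout library lay within the wild-type range. For none of the 83 genes were the groups without overlap, where 1.1% of all genes were lower without overlap, and the count was 0 without p16 KO RUN 15 (all genes 3.18%), 8 without p16 WT RUN 10 (9.64% of the members, all genes 4.43%) and 1 without each of p16 WT RUN 11 and p16 WT RUN 12 (1.2%, all genes 3.42% and 6.05%), all lower. Without p16 KO RUN 13 the 1 gene past the threshold was higher (all genes 3.99%), and without p16 KO RUN 14 there was 1 in each direction (2.41%, all genes 3.87%).

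Sets B and E compare the genotypes without a shared library. The mean was higher in the knockout in both for 18 genes, lower in both for 2 and of opposite direction for 63. Without the 3 libraries low in nuclear RNA they were 13, 26 and 44.

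The interaction asked whether the running effect differed between the genotypes, with all 16 libraries. The running effect in the knockout was below that in the wild type for 80 of 83 genes, with a median difference of −0.20 against 0.02 over all genes. At an unadjusted p under 0.05 there were 11 genes with a more negative effect in the knockout and 1, Rpl39l, with a more positive one, where the background was 2.54% and 2.95% (5.48% in either direction). The 11 were 6 small subunit genes (among them Rps12, Rps13, Rps28 and Rps29), Rpl38 of the large subunit, the P-stalk genes Rplp1 and Rplp2, and the paralogues Rpl22l1 and Rps4l.

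For Rps12 the log2 difference between runners and sedentary mice was −0.31 in the knockout (Set A) and 0.04 in the wild type (Set C), where its mean was 811 TPM in the runners and 780.3 TPM in the sedentary mice. The difference of the effects was −0.35 (SE 0.12, limma, unadjusted p = 0.0097, adjusted p = 0.797). Rps13 had a difference of −0.26 (SE 0.0931, limma, unadjusted p = 0.0144, adjusted p = 0.797) and Rplp2 one of −0.25 (SE 0.102, limma, unadjusted p = 0.026, adjusted p = 0.797). Without p16 WT CTL 2 and p16 KO CTL 6 and 7 the effect was lower in the knockout for 63 of 83 genes and higher for 20, the median difference was −0.0412 and 5 genes (6.02%) were past the threshold, where the background was 7.25%. Rps12 then had a difference of −0.22 (SE 0.071, limma, unadjusted p = 0.00816, adjusted p = 0.639), Rps13 one of −0.18, Rplp1 one of −0.17 and Rplp2 one of −0.16, and the last 3 were not past the threshold.

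Single libraries moved the count of the interaction strongly. It was 32 and 35 without p16 KO CTL 5 and 8 (38.6% and 42.2% of the members, where 11.4% and 7.85% of all genes were past the threshold), and without p16 KO CTL 6 and 7 it was 2 and 4 (2.41% and 4.82%, all genes 4.12% and 3.7%). It was 4 without p16 KO RUN 15, without p16 WT RUN 12 and without either of p16 WT CTL 1 and 3 (4.82%, all genes 3.57% to 4.78%). It was 7 without p16 WT RUN 10, 6 without p16 WT RUN 11 and 5 without p16 KO RUN 13 (8.43%, 7.23% and 6.02%, all genes 4.63%, 6% and 4.75%).

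Markers of cell types moved in the interaction too. Of all genes, 5.48% were past the unadjusted threshold there in either direction, and 7.25% without the 3 libraries low in nuclear RNA. The difference of the running effects was negative for all 6 oligodendrocyte markers (median −0.56, 1 past the unadjusted threshold) for 6 of 7 of CA pyramidal neurons (−0.30, 3 past it) and for all 7 of GABAergic interneurons (−0.23, 1 past it), and positive for all 7 of granule neurons (0.31) and all 6 of endothelium (0.34). Astrocyte and microglia markers had medians of −0.25 and −0.24, with all 6 of each negative. Without the 3 libraries low in nuclear RNA the median was −0.82 for oligodendrocytes, with all 6 past the threshold, −0.43 for CA pyramidal neurons and −0.25 for GABAergic interneurons, with 3 of each past it, and 0.66 for granule neurons. It was then −0.14 for astrocytes, −0.03 for microglia and 0.04 for endothelium, and the part of these cell types in the interaction of the ribosomal protein genes was not tested.

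Other genes of the translation machinery were read beside the family in Set A, where the members differed most. Of all genes tested there, 7.74% were lower and 10.7% higher at an unadjusted p under 0.05. Of 4 listed ribosomal proteins with other names, 3 were tested and had a median log2 difference of −0.24. Fau, which encodes a ubiquitin-like protein fused to a small subunit protein, had a log2 difference of −0.32 (SE 0.111, limma, unadjusted p = 0.0179, adjusted p = 0.218) and Rpl36al one of −0.24 (SE 0.0847, limma, unadjusted p = 0.0185, adjusted p = 0.219). All 6 elongation factor genes had a lower mean (median −0.15), of which Eef1b2, a nucleotide exchange subunit, passed the unadjusted threshold (log2 difference −0.24, SE 0.0811, limma, adjusted p = 0.214).

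Of 10 other genes whose mRNAs are known to carry a TOP tract, 3 were lower at an unadjusted p under 0.05 (the initiation factor subunits Eif3e and Eif3h, and Naca, a chaperone at the ribosome exit) and the median was −0.16. The 15 genes of ribosome biogenesis had a median of −0.06, with Bop1 higher and Ncl and Wdr12 lower at this threshold. The 10 regulators of TOP translation (the mTOR pathway and Larp1) had a median of 0.02, with 1 higher, Rps6kb2, a gene for an S6 kinase, at 0.84 (SE 0.31, limma, adjusted p = 0.233).

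The 77 genes of the mitochondrial ribosome had a median of −0.11 in Set A, with 17 lower and none higher at the unadjusted threshold. In Set B their median was 0.08, with 8 higher and 1 lower. The background was 7.74% lower in Set A, and 3.15% higher and 6.69% in either direction in Set B. The 8 nuclear long noncoding RNAs went the other way in Set A, with a median of 1.06 and all 8 higher, of which Malat1 (log2 difference 1.62, SE 0.507, limma, adjusted p = 0.201) and Kcnq1ot1 (1.12, SE 0.488, limma, adjusted p = 0.267) passed the unadjusted threshold. In Set B their median was −0.89, with all 8 lower. Without the 3 libraries low in nuclear RNA the medians in Set A were −0.09 for the ribosomal proteins with other names, 0.00 for the elongation factors, −0.03 for the other TOP genes, −0.06 for ribosome biogenesis, 0.01 for the regulators and −0.05 for the nuclear noncoding RNAs. For the mitochondrial ribosome they were −0.02 in Set A, with 1 gene lower, and 0.02 in Set B, with 4 higher. In these fits 8.49% (Set A) and 6.68% (Set B) of all genes were past the threshold in either direction. In Set A without those libraries, no ribosomal protein with another name, elongation factor or regulator was past the unadjusted threshold. Of the other TOP genes and of ribosome biogenesis 1 each was higher and none lower, and of the nuclear noncoding RNAs 1 was higher and 1 lower. No gene of these lists had an adjusted p under 0.05 in limma, and whether nuclear RNA has a part in the levels of the ribosomal protein genes was not tested.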

How the data were processed

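Total RNA of the dentate gyrus was sequenced in 16 libraries (Universal Plus mRNA-Seq kit, stranded). The submitters' processing notes name bcl2fastq 2.20, cutadapt 1.11, STAR, StringTie, HTSeq, DESeq2 and the mm10 build, and no sequencing batch is given. The TPM values, as deposited, are StringTie abundances per gene, which correct for transcript length and are shares of the total of a library. The FPKM values deposited beside them come from the same run. The coverage values, as deposited by the authors, are the mean depth per base, from 25.8 to 20843.6 for the ribosomal protein genes whose mean reached 100 TPM. The tables hold no read counts, so the counting error of a gene is not known. The authors' own count-based comparisons were not used.

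Where a library lists a gene name more than once, its values were added up (112 to 130 names, no ribosomal protein gene among them). The scaling factor of a library was the median ratio to the average library, taken from 13226 genes that reach 1 TPM in every library. After scaling, 0.1 TPM was added before the log2, which shrinks fold changes of genes near 0 TPM. All 17317 genes whose mean reached 0.1 TPM were fitted with limma 3.58.1 in R 4.3.3 (empirical Bayes, variance trend), with 8 libraries in each Set and 16 in the interaction, and the procedure was tested on simulated data. Exact two-sided permutation tests used mean log2 values. Overlap of groups was judged on scaled values. Files were handled in Python 3.11.15 with pandas 2.3.3, numpy 2.4.6 and matplotlib 3.10.9.

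The groups come from the sample labels. P-values measure the spread between libraries of 2 pooled mice each. The members, gene lists and marker lists were chosen with earlier results of these data known. Genes were named if the name rule spells them out, if they were among the 3 of smallest p in a comparison, the 5 highest or 5 lowest in mean TPM, or the 5 with the widest gap between libraries inside a group, or if they form a paralogue pair, as was Cdkn2a. Other genes named as counts of calls, loci or examples were chosen after their values were seen. Start sites are from RefSeq (GRCm38.p6), loci of copies and coding sequences from GENCODE vM21. A few genes of the family are not reported by name here.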

Additional observations from a re-analysis of the deposited data

Results flagged for a closer look

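In 9 of the 144 groups of 4 libraries tested for a single library far from the rest (a named gene in a group), 1 library stood apart. Chance gives about 1 in 20, or 7.2, for genes named without regard to such gaps. Here 5 genes were named for the widest gap between libraries inside a group, among them Rps27, Rpl3l and Rpl35a. The count therefore cannot be compared with chance. The 9 were Rps27 in p16 WT RUN 12 (762 TPM) and in p16 KO RUN 14 (671 TPM), which carry the second level of the Rps27 entry, Rplp1 in p16 WT RUN 11 (3551 TPM), Rplp2 in p16 KO RUN 15 (955 TPM), Rps27l in p16 WT CTL 3 (41.6 TPM), Rpl3l in p16 WT RUN 10 (0.887 TPM), Rpl35a (628 TPM) and Rpl7 (627 TPM) in p16 KO RUN 16, and Rps4x in p16 WT CTL 2 (599.8 TPM). The last is 1 of the 3 libraries low in nuclear noncoding RNA.

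The effect of running differed between the genotypes at an unadjusted p under 0.05 for several of the named genes, with no adjusted p below 0.797 with all libraries (limma). Of all genes, 5.48% were past this threshold. Rps12, Rps13 and Rplp2 were named for their small p in this very comparison, so their calls restate that choice. The difference of the log2 effects, knockout minus wild type, was −0.32 for Rplp1, −0.25 for Rplp2, −0.31 for Rpl38, −0.35 for Rps12, −0.26 for Rps13, −0.28 for Rps29, −0.27 for Rpl22l1 and −0.34 for Rps4l. Without the 3 libraries low in nuclear RNA it was −0.17 for Rplp1, −0.16 for Rplp2, −0.18 for Rps13 and −0.12 for Rpl22l1, none of them past the unadjusted threshold, and −0.19 for Rpl38, −0.22 for Rps12, −0.20 for Rps29 and −0.41 for Rps4l, which stayed past it (limma, adjusted p from 0.639 to 0.832 for these genes). With all libraries it was 2.23 for Rpl39l, which was listed at 0 in 8 of the 16 libraries and lay under 0.65 TPM in the rest, and 2.09 without the 3 libraries, not past the threshold.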

How the results depend on the processing

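No paired analysis was possible because the labels number the replicates 1 to 16 across the groups, so that none share a number. Besides the alternatives planned, the locus sums and the fits without the 3 libraries low in nuclear RNA were chosen after seeing the data. The number given is that of ribosomal protein genes at an unadjusted p under 0.05, with all libraries and the main settings in the first brackets and then with the percentage of all genes past it in each other fit. In Set A (49) it was 24 with quantile normalization (17.8%) and 6 without those libraries (8.49%), where the median was −0.0698. In Set B (2) it was 0 with no filter (6.49%), with TPM as deposited (6.43%), without the variance trend (6.15%) and without those libraries (6.68%), 1 with quantile normalization (Rpl30, lower, 7.29%) and with locus sums (higher, 6.68%), and 14 with all 16 libraries in one fit (12.7%), and without those libraries the median was 0.00777. In Set C (6) it was 10 with TPM as deposited (4.7%), 2 with all 16 libraries (5.64%) and 3 without the trend (4.68%). In Set D (14) it was 24 with TPM as deposited (8.52%) and with quantile normalization (9.14%) and 1 with all 16 libraries (7.42%). In Set E (4) it was 2 with FPKM (3.78%) and 0 with all 16 libraries (3%) and without the trend (4.05%). In the interaction (12) it was 7 with quantile normalization (5.49%) and 5 without those libraries (7.25%), where the median was −0.0412. Quantile normalization also moved the median by over 1.5 times, to −0.15 (Set A), 0.06 (B), −0.04 (C) and −0.10 (interaction), and TPM as deposited moved the median of Set B to 0.11. The causes were not tested.

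Leaving out each library in turn, the number ranged from 10 to 76 in Set A, 0 to 13 in Set B, 1 to 11 in Set C, 6 to 20 in Set D, 0 to 8 in Set E and 2 to 35 in the interaction. The median log2 difference ranged from −0.34 to −0.20 in Set A, 0.09 to 0.24 in Set B, −0.10 to −0.03 in Set C, −0.14 to −0.06 in Set D, −0.05 to −0.01 in Set E and −0.28 to −0.12 in the interaction, with no change of sign. The direction of the Rps27 entry in Set E turned, between −1.56 (without p16 KO RUN 14) and 1.24: it was 1.24 without p16 WT RUN 12 and 0.30, 0.36 and 0.26 without p16 KO RUN 13, 15 and 16. The summed TPM per group moved by less than the spread between replicates with scaled TPM and with the highest value per gene name. With no counts in the tables, depth limits most the genes near 0 TPM (Rpl3l and Rpl39l).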
